A study of Mus musculus with 8 samples.

Results

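The genes of the proteasome and of the immunoproteasome were followed in mouse CD8 T cells and group 2 innate lymphoid cells (ILC2s, innate relatives of helper T cells). They were taken by symbol, as every name made of Psma, Psmb, Psmc, Psmd, Psme, Psmf or Psmg and a digit in either count table. This gave 50 symbols among the 19805 found in either table, of which 50 were in the CD8 T cell table and 48 in the ILC2 table. Of these, 46 encode subunits, activators, assembly chaperones or the inhibitor Psmf1, and all 46 passed the filter on low counts in both tables. The other 4 symbols were counted apart, being the testis-type subunit gene Psma8, the pseudogene Psmb7-ps2, the recombination factor Psmc3ip and the Psme2-like gene Psme2b.

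Lung ILC2s and splenic CD8 T cells of wild-type mice were kept together for 3 days at 5:1, or each on its own, and every group was sorted by flow cytometry before bulk RNA sequencing (SMART-Seq v4 kit for low input). The groups are CD8 T cells labelled alone, CD8 T cells labelled co-cultured, ILC2s labelled alone and ILC2s labelled co-cultured, with 2 libraries in each. No label names an allele, a stimulus or the age of the mice, and nothing says that the libraries of a group came from separate cultures or animals. A p-value therefore measures the spread between these libraries, which may be technical.

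The proteasome degrades ubiquitin-tagged proteins inside a barrel, the 20S core, built of rings of alpha (Psma) and beta (Psmb) subunits. The 19S cap, made of ATPases (Psmc) and other subunits (most Psmd proteins), recognises and unfolds the tagged protein, while Psme proteins form alternative caps. In lymphocytes, and in other cells exposed to interferon gamma, the catalytic subunits Psmb5, Psmb6 and Psmb7 are replaced in new particles by the immunosubunits Psmb8, Psmb9 and Psmb10, which favours peptides that fit MHC class I molecules.

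Library totals ran from 48072595 to 67076905 reads. The sum of 9 CD8 T cell marker genes was 4804 and 4957 CPM (counts per 1000000 reads of the library) in the CD8 T cell libraries labelled alone, against 6347 and 6348 CPM in those labelled co-cultured. The 7 ILC2 markers found in the CD8 T cell table summed to 177 and 180 CPM against 215 and 239 CPM. Of these, Gata3, Il1rl1, Il5 and Arg1 were higher in both libraries labelled alone, Rora and Nmur1 were lower, and Areg overlapped. Il5 had 10.5 and 9.86 CPM against 0.665 and 0.686 CPM. The mast cell gene Cpa3 had 11.4 and 8.65 CPM against 0.0151 and 0.0298 CPM. The CD8 T cell labels were not tested and are used as given. The ILC2 libraries labelled alone held markers of other cells. Their 9 CD8 T cell markers summed to 1450 and 1381 CPM, against 179 and 216 CPM in the ILC2 libraries labelled co-cultured. The 7 stroma markers found in the ILC2 table summed to 5279 and 5689 CPM against 113 and 118 CPM, and the 5 macrophage markers to 313 and 319 CPM against 17.0 and 21.1 CPM. All 9 T cell markers, all 5 macrophage markers and 6 of the 7 stroma markers were higher in both libraries labelled alone. The exception was Lum, at 61.0 and 71.7 CPM against 105 and 110 CPM, which makes up most of the stroma sum of the libraries labelled co-cultured. Of 20 markers of dendritic, B, CD4 T, NK, granulocyte, mast and epithelial cells, 16 were higher in both libraries labelled alone, 3 were lower (Xcr1, Cd79b and Zbtb7b) and 1 overlapped. Most of the dendritic cell sum (527 and 557 CPM against 129 and 140.1 CPM) was Ccr7, which T cells express as well. The 10 ILC2 markers summed to 3370 and 3356 CPM in the libraries labelled alone and 8383 and 8076 CPM in those labelled co-cultured. T cell markers were thus higher in the ILC2s said to have been kept without T cells, which puts the ILC2 labels in doubt. They are used as given, and an exchange of them would turn each ILC2 direction below. The part of the other cells in the ILC2 results was not tested. In bulk RNA, fewer cells of a type and less RNA per cell cannot be told apart.

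Proteasome transcripts took a smaller share of the reads in the libraries labelled co-cultured of both cell types. The 46 genes together held 1.26% and 1.17% of the reads in CD8 T cells labelled alone, and 0.721% and 0.718% in those labelled co-cultured. In ILC2s the share was 0.983% and 0.946% in libraries labelled alone, and 0.436% and 0.482% in those labelled co-cultured. The groups did not overlap in either cell type. In CD8 T cells 45 of the 46 genes fell and 0 rose at an adjusted p under 0.05 (edgeR, quasi-likelihood test), where 60.9% of the 15948 genes tested were called, 30.7% as lower and 30.2% as higher. DESeq2 and limma-voom also called 0 of them higher, and at an unadjusted p under 0.05 the count of higher genes was 0 with all 3 tools. In ILC2s 38 fell, 0 rose and 8 were not called, where 66.3% of 16739 genes were called, 34.4% as lower and 31.8% as higher. In ILC2s 0 were higher at an unadjusted p under 0.05 with edgeR and limma-voom, and 1 with DESeq2. The median log2 change was -0.89 over the 46 genes in CD8 T cells and -1.16 in ILC2s, beside -0.01 over all genes tested in each table.

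**Figure D1:**
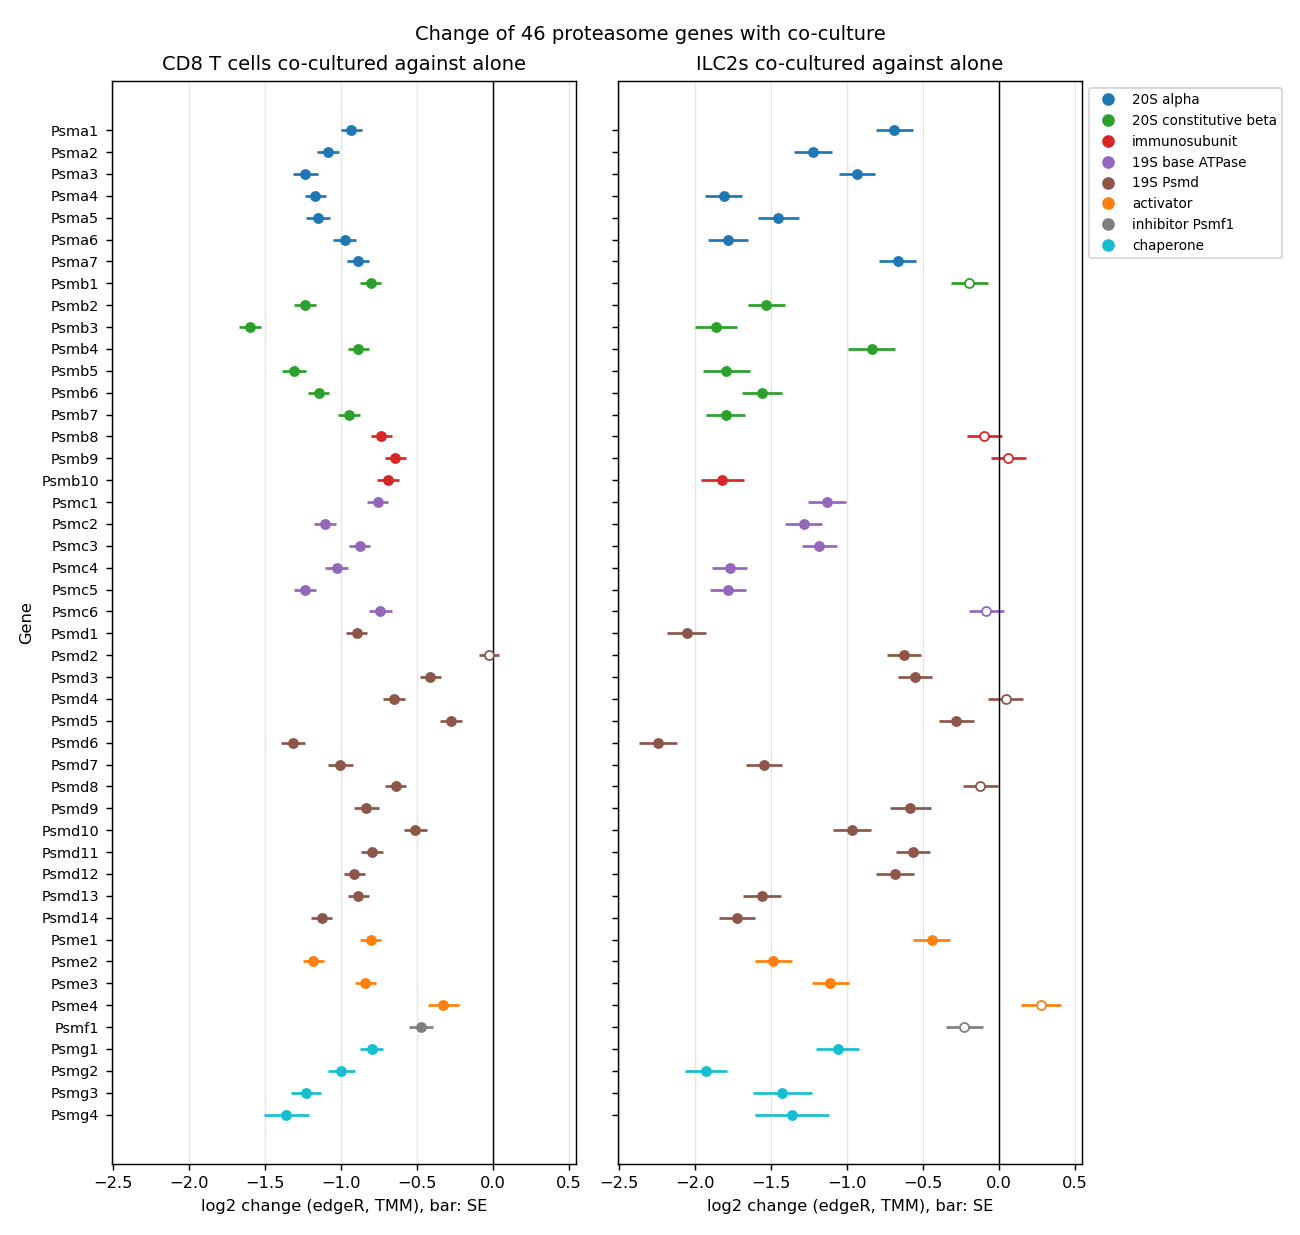
Log2 change (co-cultured against alone, edgeR) of each of the 46 proteasome genes in CD8 T cells and ILC2s, by subunit class, with bars of 1 SE and open symbols where the adjusted p was not under 0.05. Changes in CD8 T cells lie between -1.60 and -0.02, and those in ILC2s spread from -2.24 to 0.27.

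Within the 20S core, all 7 alpha subunits and all 7 constitutive beta subunits fell in CD8 T cells, with median log2 changes of -1.09 and -1.15. The largest fall among the 46 genes was in Psmb3, a structural beta subunit, at 221 and 202 CPM in libraries labelled alone and 75.3 and 72.2 CPM in those labelled co-cultured (log2 change -1.60, SE 0.074, adjusted p = 4.3e-09). Psma7 had the smallest change among the alpha subunits (log2 -0.89) and Psma3 the largest (-1.23). In ILC2s the 7 alpha subunits and 6 of the 7 constitutive beta subunits fell, with medians of -1.23 and -1.56. Psma4, an alpha subunit, went from 241 and 225 CPM to 52.8 and 61.7 CPM (log2 -1.81). It shares 114 of its 1165 exon bases with AY074887 on the opposite strand. Psma7 went from 286 and 255 CPM to 135 and 159.8 CPM (log2 -0.67). Psmb1, a structural beta subunit, was at 177 and 179.8 CPM in ILC2 libraries labelled alone and at 122 and 147 CPM in those labelled co-cultured, with no overlap. Its log2 change of -0.20 (SE 0.12, adjusted p = 0.17) was not called, but it was -0.41 (adjusted p = 0.010) when scaled by library totals alone and -0.35 (adjusted p = 0.0038) in a fit of all 8 libraries. Over 13 alternative settings its adjusted p ran from 0.0038 to 0.413.

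The 3 constitutive catalytic subunits fell in both cell types, and by more in ILC2s. Psmb5, which carries the chymotrypsin-like activity, had 185 and 169 CPM in CD8 T cell libraries labelled alone and 79.9 and 71.5 CPM in those labelled co-cultured (log2 -1.31, SE 0.079, adjusted p = 3.7e-08). The ILC2 libraries held 124 and 129 CPM against 26.1 and 37.3 CPM (log2 -1.79, SE 0.153, adjusted p = 1.1e-06). The groups were apart in each table. Psmb6, the caspase-like subunit, had 205 and 193 CPM against 96.9 and 93.3 CPM in CD8 T cells (log2 -1.15, adjusted p = 4.3e-08). Its ILC2 values were 142 and 136 CPM against 35.9 and 45.5 CPM (log2 -1.56, adjusted p = 1.0e-06). Psmb7, the trypsin-like subunit, stood out from these by the gap between the cell types. It had 197 and 181 CPM against 101 and 106 CPM in CD8 T cells (log2 -0.95, adjusted p = 2.4e-07), and 117 and 121 CPM against 26.8 and 32.2 CPM in ILC2s (log2 -1.80, adjusted p = 2.5e-07). Psmb7 shares 405 of its 1160 exon bases with Nek6 on the opposite strand, and the strand setting of the counting is not given, so its values are uncertain. Psmb5 shares 109 of 899 exon bases with Mir686 on its own strand, which holds for its values too.

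Sequence before the RefSeq starts of Psmb8, Psmb10, Psmb5 and Psmb6 is shown to place the motifs searched next to genes whose levels differ below. Psmb9 and Psmb7 are not shown, and no match was recorded for them or for Psmb10. Windows of 250 bases before the RefSeq start (GRCm38.p6) were available for 41 of the 50 symbols. Each sequence is written 5′ to 3′ along its gene's strand, with a motif match in capitals. For Psmb10 and Psmb5, stretches next to the start that GENCODE M21 annotates as exon are left out. At most 150 bases are printed per gene, so sequence further upstream is cut for Psmb10, Psmb5 and Psmb6. The RefSeq start of Psmb8 lies within the gene as GENCODE annotates it, and its whole window is exon there, so only 30 bases around the match are shown.
Psmb8 (chr17:34198087-34198116, plus strand): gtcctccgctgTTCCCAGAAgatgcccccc
Psmb10 (chr8:105938445-105938594, minus strand): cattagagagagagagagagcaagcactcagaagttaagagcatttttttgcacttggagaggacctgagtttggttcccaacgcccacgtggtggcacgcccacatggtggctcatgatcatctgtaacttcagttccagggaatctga
Psmb5 (chr14:54618023-54618172, minus strand): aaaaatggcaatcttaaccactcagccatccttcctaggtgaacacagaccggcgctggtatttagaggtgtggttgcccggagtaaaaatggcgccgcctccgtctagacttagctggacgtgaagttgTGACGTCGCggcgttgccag
Psmb6 (chr11:70525207-70525356, plus strand): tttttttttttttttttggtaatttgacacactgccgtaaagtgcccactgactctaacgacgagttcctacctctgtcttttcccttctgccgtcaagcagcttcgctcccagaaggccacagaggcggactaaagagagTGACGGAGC
The letters TTCNNNGAA, the spacing of a STAT site, were found on both strands as TTCCCAGAA at -97 to -89 from the Psmb8 start, and among the members otherwise only before Psmg1. They were in 7.02% of all 32851 windows of this length. The letters TGACNNNGC, of the kind bound by Nfe2l1 and Nfe2l2, were found before Psmb5, Psmb6, Psmc6, Psmd12 and Psmd9, and in 10.2% of all windows. The interferon-stimulated response element core (GAAA, any 2 bases, GAAA) was found before Psmb3, Psmd4 and Psmd9, and in 2.98% of all windows. Both strands were searched, no match overlaps another in the windows shown, and a match is a description of the letters only.

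The immunosubunits split in ILC2s, where Psmb10 fell and Psmb8 and Psmb9 were not called, whereas all 3 fell in CD8 T cells. Psmb8 lies on chromosome 17 at 34197721-34201454 (GRCm38, GENCODE M21), between the peptide transporter genes Tap1 and Tap2, and Psmb9 at 34181987-34187764 on the other side of Tap1. Psmb10 lies at 105935735-105938444 of chromosome 8.

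Psmb8, the immunosubunit that replaces Psmb5, had 839.7 and 772 CPM in CD8 T cell libraries labelled alone and 514 and 510.3 CPM in those labelled co-cultured (log2 -0.73, SE 0.069, adjusted p = 1.3e-06). In ILC2s it had 625 and 583 CPM in libraries labelled alone and 445 and 530.4 CPM in those labelled co-cultured (log2 -0.10, SE 0.116, adjusted p = 0.47). Its groups did not overlap in either table on the CPM scale. The ILC2 call turned on the scaling, with -0.31 (adjusted p = 0.032) by library totals alone and -0.25 (adjusted p = 0.024) in the fit of all 8 libraries. Over its 13 alternatives the adjusted p ran from 0.024 to 0.802.

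Psmb9, which replaces Psmb6, had 272 and 254 CPM against 178 and 178.5 CPM in CD8 T cells (log2 -0.64, SE 0.069, adjusted p = 4.1e-06). Among ILC2 libraries it had 217 and 198 CPM in libraries labelled alone and 174 and 199 CPM in those labelled co-cultured, so that the groups overlapped (log2 0.06, SE 0.117, adjusted p = 0.66). Psmb9 shares 212 of its 1352 exon bases with Tap1 on the opposite strand and Psmb8 shares 186 of 1628 with Gm20496, so part of their reads cannot be told apart from those genes.

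Psmb10, which replaces Psmb7, had 94.1 and 91.6 CPM against 60.7 and 60.8 CPM in CD8 T cells (log2 -0.69, SE 0.072, adjusted p = 3.2e-06). In ILC2s it had 149 and 144 CPM in libraries labelled alone and 30.7 and 41.1 CPM in those labelled co-cultured (log2 -1.82, SE 0.14, adjusted p = 4.8e-07), a 3.53-fold fall. Both co-cultured values lay far below both values of the libraries labelled alone. Psmb10 and Psmb7 had similar changes in ILC2s, at -1.82 and -1.80.

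**Figure D2:**
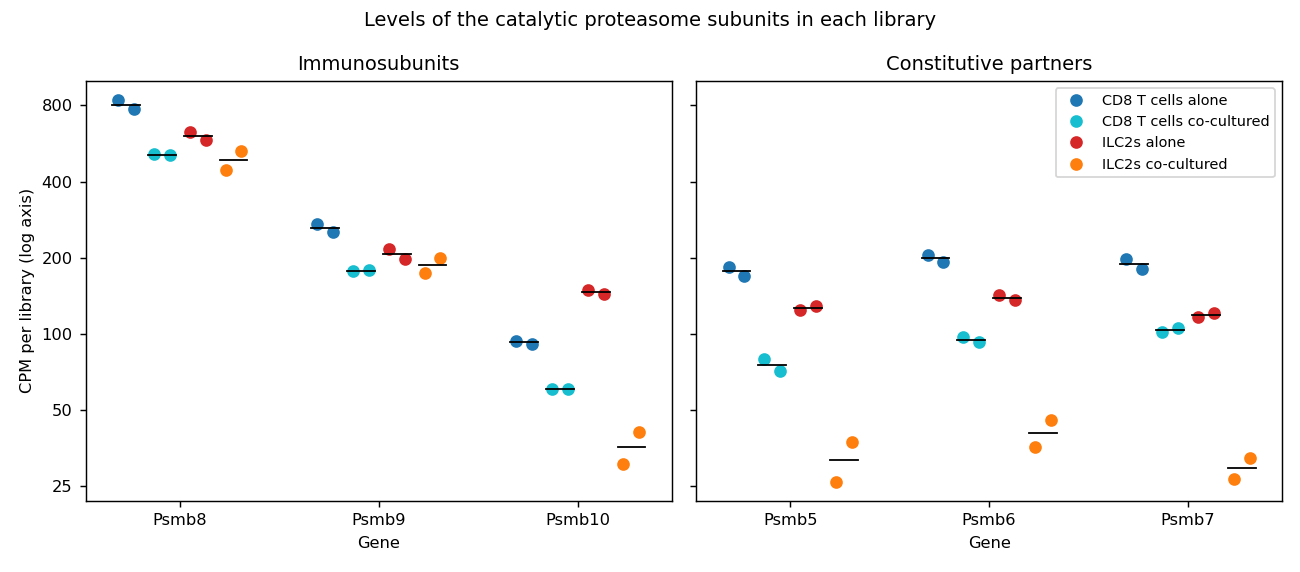
CPM of the 3 constitutive catalytic subunits and the 3 immunosubunits that replace them, one point per library on a log axis with a line at the mean of each of the 4 groups. In ILC2s labelled co-cultured, Psmb8 stays at 445 and 530.4 CPM and Psmb9 at 174 and 199 CPM, while Psmb10 lies at 30.7 and 41.1 CPM.

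Ratios of read counts within a library, which do not depend on the scaling between libraries, were computed for the 3 pairs. In CD8 T cells there were 4.54 and 4.56 reads of Psmb8 per read of Psmb5 in libraries labelled alone and 6.43 and 7.14 in those labelled co-cultured, a 1.49-fold higher ratio (log2 difference 0.57, pooled SD 0.076). In ILC2s the same ratio was 5.03 and 4.50 against 17.1 and 14.2, 3.27-fold higher (log2 1.71, pooled SD 0.153). The groups were apart in both cell types. The Psmb9 to Psmb6 ratio was 1.42-fold higher in CD8 T cells, at 1.32 and 1.32 against 1.83 and 1.91. In ILC2s it was 3.09-fold higher, at 1.53 and 1.46 against 4.86 and 4.37. The third pair did not follow these in ILC2s. Psmb10 to Psmb7 was 0.477 and 0.507 against 0.599 and 0.576 in CD8 T cells (1.19-fold), and in ILC2s 1.28 and 1.19 against 1.15 and 1.28, with overlapping groups (log2 difference -0.03, pooled SD 0.092). Leaving out ILC2 alone replicate 1 or ILC2 co-cultured replicate 1 turned that last difference to 0.02 and 0.05. With 2 libraries against 2, the exact two-sided permutation test cannot go below p = 0.333. That value was reached in 5 of the 6 comparisons, and the exact permutation p was 0.667 for Psmb10 to Psmb7 in ILC2s.

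**Figure D3:**
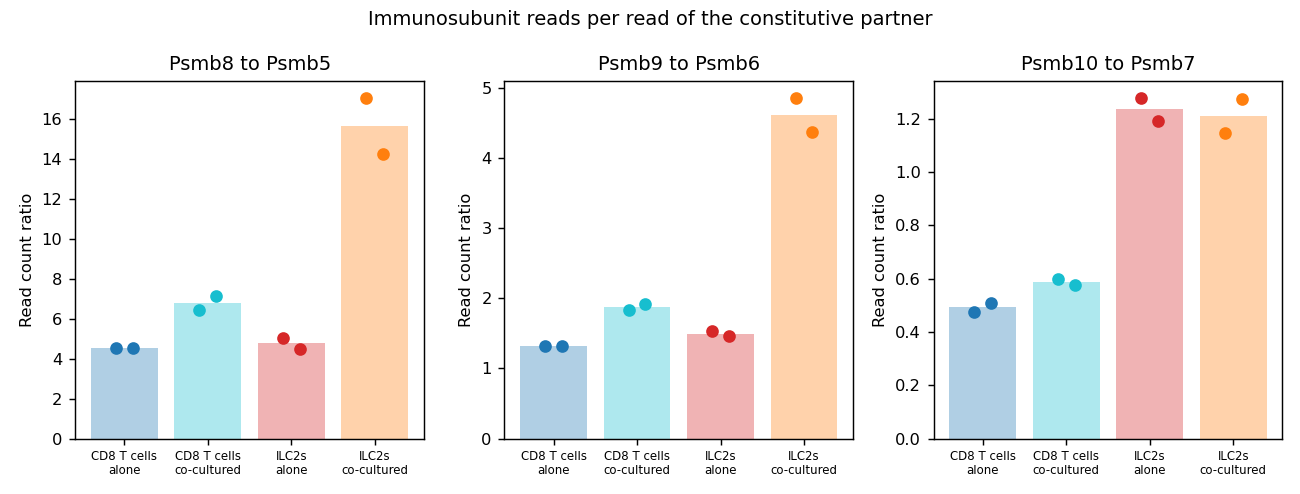
Count ratio of each immunosubunit to its constitutive partner within each library, for the 4 groups, with points for libraries and bars for the mean on a linear axis from 0. The Psmb8 to Psmb5 ratio reaches 17.1 and 14.2 in ILC2s labelled co-cultured, and the Psmb10 to Psmb7 ratio stays between 1.15 and 1.28 in all 4 ILC2 libraries.

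Per length, on the scale of reads per kilobase of the principal transcript per 1000000 reads, Psmb8 was the most abundant of the 6 catalytic genes in every group. Its mean level was 495.0 in CD8 T cells labelled alone, beside 197 for Psmb5, and 299.5 in ILC2s labelled co-cultured, beside 35.2 for Psmb5. Psmb9 stood below Psmb6 in CD8 T cells labelled alone (194 and 249.6) and above it in ILC2s labelled co-cultured (138 and 51.0). Psmb10 was the least abundant of the 6 in CD8 T cells labelled alone, at 70.8. These values rest on 2 libraries a group and on 1 annotated transcript a gene.

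In the 19S cap, the 6 ATPases all fell in CD8 T cells (median log2 change -0.95) and 5 of 6 fell in ILC2s (median -1.23). Psmc5 had the largest ATPase change in both, from 212 and 192 CPM to 89.5 and 91.7 CPM in CD8 T cells (log2 -1.24) and from 199 and 183 CPM to 46.7 and 49.0 CPM in ILC2s (log2 -1.78). Psmc6 was at 179.6 and 180.0 CPM in ILC2s labelled alone and at 146.1 and 146.2 CPM in those labelled co-cultured. Its ILC2 log2 change of -0.08 (adjusted p = 0.53) was not called, although it was -0.30 (adjusted p = 0.024) by library totals alone and -0.24 (adjusted p = 0.029) in the fit of all 8 libraries, over a range of 0.024 to 0.778 in its 13 alternatives.

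Of the 14 Psmd genes, grouped by name alone, 13 fell in CD8 T cells and 12 in ILC2s, with medians of -0.81 and -0.65. In ILC2s Psmd5 was close to the threshold (log2 -0.28, adjusted p = 0.0495), and Psmd8 was not called (log2 -0.12, adjusted p = 0.36). Psmd6, a lid subunit, fell most in ILC2s, from 179 and 162 CPM to 30.8 and 31.2 CPM (log2 -2.24, SE 0.125, adjusted p = 3.5e-08), and in CD8 T cells from 207 and 182 CPM to 80.7 and 84.4 CPM (log2 -1.31). Psmd1, a large scaffold subunit of the base, went from 343 and 313 CPM to 71.7 and 64.2 CPM in ILC2s (log2 -2.06, adjusted p = 9.5e-08), with 301 of its 3112 exon bases shared with Gm21972 on the same strand. Psmd2, the other large scaffold subunit of the base, behaved otherwise. It had 627 and 635 CPM in CD8 T cell libraries labelled alone and 665 and 649 CPM in those labelled co-cultured (log2 -0.02, SE 0.067, adjusted p = 0.78), and it fell in ILC2s from 639 and 636 CPM to 363 and 348 CPM (log2 -0.63). Psmd4, a ubiquitin receptor, fell in CD8 T cells from 270.0 and 255 CPM to 173 and 180.5 CPM (log2 -0.65). In ILC2s it had 244 and 219 CPM against 194 and 218 CPM, with groups that nearly touched, and was not called (log2 0.04, SE 0.116, adjusted p = 0.75).

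The activators and the Psmg assembly chaperones fell with the core, apart from Psme4 in ILC2s. Psme1 and Psme2 encode the interferon-inducible PA28 cap. Psme1 went from 472 and 447 CPM to 274 and 282 CPM in CD8 T cells (log2 -0.80) and from 367 and 310.4 CPM to 203.5 and 227 CPM in ILC2s (log2 -0.44, adjusted p = 0.0073). Without ILC2 alone replicate 1, the ILC2 change of Psme1 was -0.32 (adjusted p = 0.081), and over 13 alternatives its adjusted p ran from 3.6e-05 to 0.081. Psme2 fell further, from 296 and 284 CPM to 138 and 132 CPM in CD8 T cells (log2 -1.18) and from 279 and 259 CPM to 75.2 and 91.0 CPM in ILC2s (log2 -1.48), and how reads that fit the similar gene Psme2b as well were counted is not given. Psme3, which forms a nuclear cap, fell from 332 and 314 CPM to 197 and 184 CPM in CD8 T cells (log2 -0.84) and from 228 and 239 CPM to 95.4 and 91.0 CPM in ILC2s (log2 -1.11).

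Psme4 encodes the PA200 cap and was low in every library, between 19.98 and 27.7 CPM. Its ILC2 values were 25.6 and 26.7 CPM against 27.7 and 26.7 CPM (log2 0.27, SE 0.132, adjusted p = 0.086). It was called higher there with a stricter count filter (0.31, adjusted p = 0.039) and with upper quartile scaling (0.32, adjusted p = 0.042), and its adjusted p over 13 alternatives ran from 0.039 to 0.693. In CD8 T cells it fell from 24.3 and 26.1 CPM to 19.98 and 22.5 CPM (log2 -0.32, adjusted p = 0.015). That call was lost by library totals alone (-0.24, adjusted p = 0.051), without CD8 alone replicate 2 (-0.26, adjusted p = 0.105) and without CD8 co-cultured replicate 1 (-0.24, adjusted p = 0.107), within a range of 0.0086 to 0.107.

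All 4 Psmg chaperones (Psmg1 to Psmg4), which pair up to assemble the alpha ring, fell in both cell types. Psmg1 went from 72.6 and 68.5 CPM to 42.3 and 43.5 CPM in CD8 T cells (log2 -0.80) and from 28.5 and 26.2 CPM to 10.6 and 11.9 CPM in ILC2s (log2 -1.06). Psmg2, its partner, went from 75.1 and 68.4 CPM to 35.5 and 40.4 CPM (log2 -0.998), and in ILC2s from 41.2 and 38.4 CPM to 8.71 and 9.30 CPM (log2 -1.93). The second pair was lower in all groups. Psmg3 went from 35.8 and 31.4 CPM to 15.7 and 14.5 CPM in CD8 T cells (log2 -1.23) and from 22.4 and 18.8 CPM to 5.20 and 8.07 CPM in ILC2s (log2 -1.43), and 237 of its 883 exon bases are shared with Gm26938 on the same strand. Psmg4 went from 10.6 and 9.44 CPM to 4.44 and 3.82 CPM (log2 -1.36), and from 5.50 and 5.29 CPM to 1.49 and 2.14 CPM in ILC2s (log2 -1.36). The inhibitor Psmf1 fell in CD8 T cells (log2 -0.47) and was not called in ILC2s (log2 -0.23, adjusted p = 0.12).

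An interaction term fitted over the 8 libraries tested whether the response differed between the cell types. The change in ILC2s lay below that in CD8 T cells for 26 of the 46 genes and above it for 7, where 53.6% of 15532 genes were called, 32.6% below and 21.0% above. The split was 28 below and 3 above by library totals alone, and 18 below and 8 above with upper quartile scaling, where the median over the 46 genes was -0.26. The median difference was -0.42 over the 46 genes and -0.12 over all genes. Psmd1 (-1.32, SE 0.138, adjusted p = 8.0e-07), Psmb10 (-1.29, SE 0.156, adjusted p = 4.1e-06) and Psmg2 (-1.09, SE 0.155) lay furthest below. Psmb7 differed by -1.01, Psmb5 by -0.65 and Psmb6 by -0.57. Psmb9 (0.54, SE 0.129, adjusted p = 0.0022), Psmd4 (0.54, SE 0.129) and Psmc6 (0.50, SE 0.13) lay furthest above, and Psmb8 followed with 0.48 (SE 0.131, adjusted p = 0.0059). For Psmb8 the difference was 0.31 (adjusted p = 0.065) by library totals alone, and its adjusted p over 16 alternatives ran from 3.1e-05 to 0.065. The 46 genes spread more widely in ILC2s, with an SD over genes of 0.67 against 0.31 on the log2 scale in CD8 T cells. Across the 46 genes the changes in the cell types, which share no library, correlated with Pearson's r 0.69 and Spearman's rho 0.72, beside 0.27 and 0.35 over 14835 genes. Genes are not independent replicates, and the points share the libraries and scaling of their table. The ILC2 libraries labelled alone also held CD8 T cell markers, and the part of those cells in the correlation was not tested. An exchange of the ILC2 labels would turn the sign of these coefficients.

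**Figure D4:**
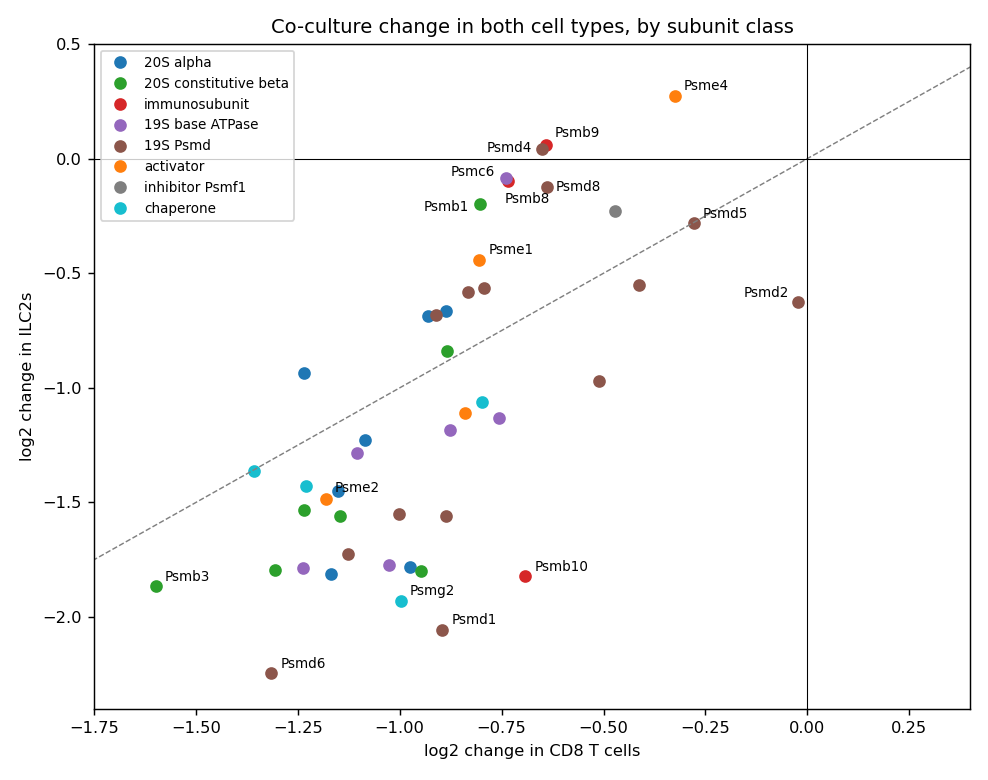
Log2 change in ILC2s against that in CD8 T cells for the 46 proteasome genes, coloured by subunit class, with the dashed line of equal change. Psmb8, Psmb9, Psmb1, Psmc6, Psmd4, Psmd8 and Psme4 lie well above the line, while Psmb10 and Psmd1 lie far below it.

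Transcript length moved with the change in these tables. Over all genes with a GENCODE length, split by length into 4 equal parts, the median log2 change from the shortest to the longest part was -0.47, -0.09, 0.19 and 0.27 in CD8 T cells and -0.21, -0.23, -0.05 and 0.20 in ILC2s. The 23 members in the shortest part had medians of -1.03 in CD8 T cells and -1.53 in ILC2s, and the 23 longer ones -0.80 and -0.63. The part of length in the proteasome result was not tested.

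Among 21 assembly factors, receptors and regulators of the proteasome tested, 9 fell and 5 rose in CD8 T cells, and 10 fell and 5 rose in ILC2s. Of all genes, 30.7% fell and 30.2% rose in CD8 T cells, and 34.4% fell and 31.8% rose in ILC2s. Pomp, which guides the maturation of the 20S core, fell from 216 and 201 CPM to 109 and 119 CPM in CD8 T cells (log2 -0.95) and from 145 and 145 CPM to 51.9 and 65.6 CPM in ILC2s (log2 -1.09). Nfe2l1, the transcription factor that raises subunit genes when proteasome activity is low, was not called in CD8 T cells (log2 0.07, adjusted p = 0.51) or ILC2s (log2 -0.09, adjusted p = 0.58). Ddi2, the protease that activates Nfe2l1 protein, rose from 30.2 and 24.3 CPM to 53.9 and 52.0 CPM in CD8 T cells (log2 0.88) and from 52.4 and 52.3 CPM to 129.6 and 106 CPM in ILC2s (log2 1.39). Ecpas, a proteasome-binding scaffold, rose as well, by 0.71 in CD8 T cells and 1.17 in ILC2s on the log2 scale. The cap-bound deubiquitinase Uchl5 fell by 1.51 and 0.77. Nfe2l2, another regulator of subunit genes, fell in ILC2s (log2 -1.48) and was not called in CD8 T cells (0.03, adjusted p = 0.79). Of the 6 ubiquitin genes, 3 fell and 3 rose in CD8 T cells, and 3 rose and 0 fell in ILC2s.

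Most interferon signalling and class I peptide loading genes rose in CD8 T cells while the proteasome genes fell. Of 13 interferon signalling genes, 10 rose and 2 fell in CD8 T cells, and 5 rose and 3 fell in ILC2s. The ILC2 counts are close to the 31.8% that rose and 34.4% that fell among all genes, and in CD8 T cells 30.2% of all genes rose. Ifng, the interferon gamma gene, had 1591 and 1513 CPM in CD8 T cell libraries labelled alone and 106 and 106 CPM in those labelled co-cultured (log2 -3.95, adjusted p = 4.6e-12). In ILC2 libraries it had 203 and 210.2 CPM against 0.371 and 3.12 CPM (log2 -6.69), and both co-cultured values rest on few reads. The receptor chain Ifngr1 rose by 2.01 in CD8 T cells and by 1.15 in ILC2s on the log2 scale. Irf1, a factor that acts on the immunosubunit genes, rose by 0.54 and 0.61. Nlrc5, the class I transactivator, was not called in CD8 T cells (0.22, adjusted p = 0.054) or ILC2s (0.10, adjusted p = 0.54). Socs1, the feedback inhibitor, fell (log2 -0.36 and -1.82).

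Of the 5 class I transport and loading genes, 4 rose and 1 fell in CD8 T cells, and 4 rose and 0 fell in ILC2s. For comparison, the share of the whole CD8 T cell table that rose was 30.2%, and 30.7% fell. In the ILC2 table these shares were 31.8% and 34.4%, so a list of 5 chosen genes is a small basis. Tap1, which starts 226 bases from Psmb9 in RefSeq on the opposite strand, had 405 and 399 CPM against 557 and 539.8 CPM in CD8 T cells (log2 0.37, adjusted p = 0.00036). ILC2s held 583 and 675 CPM against 714 and 764 CPM (log2 0.45, adjusted p = 0.0059). Its groups were apart in both tables, and Psmb9 changed by -0.64 and 0.06 beside it. Tap2 rose by 0.33 in CD8 T cells and 0.38 in ILC2s. Tapbp, the loading chaperone, rose by 0.85 and 0.82. B2m, the light chain of class I molecules, fell in CD8 T cells (log2 -0.88) and rose in ILC2s (log2 0.62).

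**Figure D5:**
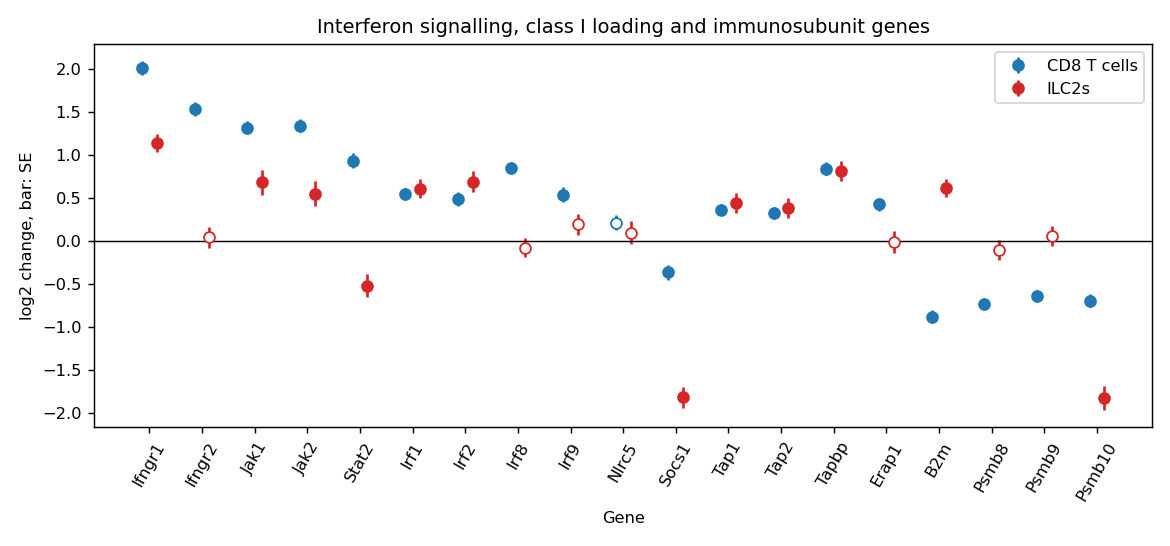
Log2 change (co-cultured against alone) of the immunosubunits and of interferon signalling and class I loading genes in CD8 T cells and ILC2s, with bars of 1 SE and open symbols where the adjusted p was not under 0.05. Ifngr1, Irf1, Tap1, Tap2 and Tapbp lie above 0 in both cell types, while Psmb10 lies at -0.69 in CD8 T cells and -1.82 in ILC2s (Ifng is not drawn).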

How the data were processed

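The authors deposited 2 tables of read counts per gene symbol, whole numbers with no normalization, for CD8 T cells (17642 genes) and ILC2s (18389 genes), each with 4 libraries. Per the submitters' processing notes, Trimmomatic 0.38, HISAT2 2.1.0, SAMtools 1.9, StringTie 2.1.3b and mm10 were used. The counter, annotation and strand setting were not given in the sources used here. The lowest count in either table is 1. Genes with no reads in a library may thus be missing from it.

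Each cell type was fitted over its whole table in R 4.3.3 by the quasi-likelihood F test of edgeR 4.0.16, after filterByExpr and TMM. Benjamini-Hochberg adjustment and a threshold of 0.05 were used. Each fit left 2 residual degrees of freedom. To these edgeR added a median of 10.4 in CD8 T cells and 9.23 in ILC2s from the spread over all genes. Its p-values thus rest mostly on variance shared across genes. SE is the size of the log2 change divided by the square root of F. The interaction used 15532 genes found in both tables. CPM is the count per 1000000 of the library total. Replicates differed by more than sampling noise and were kept as separate libraries. The alternatives were DESeq2 1.42.0, limma-voom (limma 3.58.1), other scalings and filters, left-out libraries and a replicate block.

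Members and lists were chosen with earlier results of these data known. Catalytic subunits, Psme and Psmg genes, Nfe2l1, Pomp, Ifng, Irf1, Nlrc5, Tap1 and Tap2 are always named, and some genes of the lists are not reported here. Others are the 3 largest changes in each direction and the extremes of each class or list. Psmd8 was named after its values were seen, as were other genes outside this rule. Positions are from GENCODE M21 (GRCm38). The split by transcript length was added after the data were seen.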

Additional observations from a re-analysis of the deposited data

Results flagged for a closer look

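Values are given for 10 of the members whose change in ILC2s lay below (26 members) or above (7 members) that in CD8 T cells by the interaction test (edgeR, adjusted p under 0.05). They are the 6 catalytic subunits and the members among the 3 furthest in each direction. Given as the ILC2 log2 change minus that of CD8 T cells, from a fit of all 8 libraries, Psmb8 differed by 0.48 and Psmb9 by 0.54, while the third immunosubunit Psmb10 differed by -1.29. Their constitutive partners differed by -0.65 (Psmb5), -0.57 (Psmb6) and -1.01 (Psmb7). In the 19S cap, Psmd4 differed by 0.54, Psmc6 by 0.50 and Psmd1 by -1.32. The chaperone Psmg2 differed by -1.09. The ILC2 libraries labelled alone also hold T cell, stroma and macrophage markers, which puts their label in doubt, and the part of these cells in the differences was not tested.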

How the results depend on the processing

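The members called lower numbered 44 to 45 in CD8 T cells, 36 to 43 in ILC2s and 18 to 28 in the interaction over all alternatives, with leave-one-out ranges of 44 to 45, 36 to 37 and 21 to 26. Psme4 became the 1 member called higher in ILC2s with a minimum count of 50 and with upper quartile scaling. By library totals alone the members called above in the interaction numbered 3 in place of 7, where the median of all genes moved by -0.17. The same scaling moved the ILC2 median by -0.21. Set against the mean of the constitutive 20S subunits in place of its partner, Psmb8 changed by 0.36 in CD8 T cells and 1.20 in ILC2s, Psmb9 by 0.45 and 1.36, and Psmb10 by 0.40 and -0.53. A rise on this scale was not particular to immunosubunits. Psmd2 changed by 1.07 in CD8 T cells, and in ILC2s Psme4 changed by 1.57 and Psmb1 by 1.10. Other members went the other way, such as Psmb3 in CD8 T cells (-0.50) and Psmd6 in ILC2s (-0.94). Leaving out single libraries, the Psmb10 to Psmb7 difference in ILC2s ran from -0.11 to 0.048.

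Among the single genes followed, signs turned only in 3 that were not called. CD8 Psmd2 was 0.057 by library totals, with a leave-one-out range of -0.042 to 0.0014. ILC2 Psmb9 was -0.15 by library totals and -0.093 in the fit of all 8 libraries, with a leave-one-out range of -0.00022 to 0.13. ILC2 Psmd4 was -0.17 and -0.11 in those settings, with a leave-one-out range of -0.028 to 0.12. The cause was not tested.

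Same-numbered libraries did not deviate together (correlation -0.003 in CD8 T cells and 0.074 in ILC2s). With the replicate block, 45, 38 and 26 members were called lower and 0, 0 and 7 higher in the 3 comparisons, the counts found without it. With 2 libraries a group, the ratio tests could not reach the threshold.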

Other observations

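Of the 4 symbols outside the complex, Psme2b, a gene resembling the PA28 subunit gene Psme2, rose where Psme2 fell. It had 2.71 and 2.42 CPM in CD8 T cell libraries labelled alone and 4.13 and 5.53 CPM in those labelled co-cultured (log2 0.83, edgeR adjusted p = 0.0027). In ILC2s it had 5.86 and 4.98 CPM against 9.51 and 8.94 CPM (log2 0.98, edgeR adjusted p = 0.00045). Its levels were low, and how reads shared with Psme2 were counted is not given. Psmc3ip, a factor of meiotic recombination that bears a proteasome-like name, fell from 20.1 and 16.2 CPM to 8.34 and 7.87 CPM in CD8 T cells (log2 -1.24) and from 15.0 and 10.5 CPM to 0.846 and 1.35 CPM in ILC2s (log2 -3.33). It shares 385 of its 1291 exon bases with Mlx on the opposite strand. Psma8 and Psmb7-ps2 were at or below 0.456 CPM in every CD8 library, and Psmb7-ps2 did not pass the filter on low counts.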
